A study of Mus musculus with 16 samples.

Results

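Solute carriers are membrane proteins that move small molecules across the plasma membrane and the membranes of organelles, and their genes carry the symbols Slc and Slco. The genes described here are the protein-coding rows of the deposited liver tables whose symbol starts with Slc or Slco and a family number, without Slco1a1. They number 87 of the 4505 protein-coding genes, and of the 5205 genes of all kinds, in either table. RNA came from the livers of 16 male C57BL6 mice fed for 32 weeks, with 4 mice in each of 4 groups. TSP1F/F mice carry a floxed Thbs1, the gene of thrombospondin 1 (TSP1), and were fed the low-fat LF diet or the AMLN diet, which is rich in fat, fructose and cholesterol and produces steatohepatitis. TSP1ΔPf4 mice are littermates that carry the same floxed Thbs1 and a Pf4-Cre transgene, which deletes it in megakaryocytes and platelets, and were fed the same diets. The RNA-seq groups include no mice with Cre alone, so effects of the Cre transgene and of the deletion cannot be told apart. Age is not given in the labels.

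In the liver, solute carriers set what hepatocytes take up from portal blood, such as bile acids, amino acids and drugs, what they release, and what enters mitochondria. Most members of the Slc25 family carry metabolites across the inner mitochondrial membrane, and the Slc22 and Slco families carry organic ions. Other carriers act in the lysosomes and phagosomes of macrophages, which take up cell debris and iron in the injured liver.

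Every gene of both tables had an unadjusted p-value under 0.05 for the diets within its genotype. The study's methods state a cutoff on the adjusted p-value instead, which most of the listed genes did not meet. Being listed therefore already means a difference between the diets, and the diet values below are a description of the listed genes and not independent evidence of a diet effect. The TSP1F/F table listed 53 solute carrier genes among 2558 genes, and the TSP1ΔPf4 table listed 48 among 3399. In all, 14 were in both tables, 39 in the TSP1F/F table only and 34 in the TSP1ΔPf4 table only. The counts of a gene in the other genotype were not analysed here when it was in 1 table, so the genotypes could be compared for 14 genes, and a gene in 1 table is not shown to differ between genotypes. By substrate, 13 of the 87 carry amino acids or peptides, 14 organic anions, organic cations or bile acids, 8 sugars or sugar phosphates, 8 metals, 15 belong to the mitochondrial Slc25 family, and the other 29 carry inorganic ions (8), nucleosides, nucleotide sugars or acetyl-CoA (8), monocarboxylates, dicarboxylates or sulfate (5), and vitamins, choline or other substrates (8). Slc7a6os, which is counted among the last 8, is named after its overlap with Slc7a6 on the opposite strand and is not a carrier. Slc17a8, a vesicular carrier of glutamate, is counted with the organic anions, and Slc25a17, a carrier of peroxisomes, with the Slc25 family.

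Library totals, computed from the deposited counts, lengths and FPKM (fragments scaled by gene length and library size), ranged from 17127965 to 39753019 with a median of 21485268, and levels are given below as CPM, the counts scaled by these totals. Of 10 hepatocyte markers, 3 (Ttr, Serpina1c and Asgr1) were listed in both tables, and their summed level was 2732 CPM or more in every mouse. Thbs1 was listed in the TSP1F/F table only, so it could not check the genotype labels. The LF-fed mouse with replicate number 3 stood apart in both genotypes. It had the highest level of all 8 mice for 541 (65.0%) of the 832 genes listed as lower on AMLN in TSP1F/F and for 1479 (78.0%) of 1896 in TSP1ΔPf4. The same was true of 17 of the 23 solute carrier genes listed as lower in TSP1F/F and 13 of 19 in TSP1ΔPf4, so values without this mouse are given below where they moved by more than 1.5 times.

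Promoters of 7 genes are shown first, as the windows around the transcript start in RefSeq (GRCm38.p6). They belong to bile acid carriers, to an Slc22 cluster whose listed members differed in direction, and to the cystine carrier. Windows were given for 70 of the 87 genes. Capitals mark matches on either strand to 4 motifs: the HNF1 half-site GTTAAT, the HNF4 motif CAAAGTCCA, the PU.1 motif GAGGAAGT and the C/EBP-ATF response element TGATGNAAN. A match is a description of the letters only. Slc10a1 lies at chr12:80968656-80968955, reverse strand, Slco1b2 at chr6:141629268-141629567, forward strand, Slc10a2 at chr8:5105238-5105537, reverse strand, Slc22a27 at chr19:7965978-7966277, reverse strand, Slc22a28 at chr19:8131933-8132232, reverse strand, Slc22a30 at chr19:8405056-8405355, reverse strand, and Slc7a11 at chr3:50443564-50443863, reverse strand.
Slc10a1: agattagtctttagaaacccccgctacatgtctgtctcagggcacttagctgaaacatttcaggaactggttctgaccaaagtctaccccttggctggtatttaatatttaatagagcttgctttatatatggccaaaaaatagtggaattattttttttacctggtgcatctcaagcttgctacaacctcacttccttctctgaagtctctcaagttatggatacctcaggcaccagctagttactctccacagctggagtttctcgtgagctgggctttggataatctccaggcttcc
Slco1b2: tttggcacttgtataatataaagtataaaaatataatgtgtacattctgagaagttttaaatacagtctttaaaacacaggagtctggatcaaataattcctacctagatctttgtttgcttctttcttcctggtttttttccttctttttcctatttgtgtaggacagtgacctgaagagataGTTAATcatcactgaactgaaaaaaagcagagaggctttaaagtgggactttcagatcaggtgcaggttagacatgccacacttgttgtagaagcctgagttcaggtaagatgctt
Slc10a2: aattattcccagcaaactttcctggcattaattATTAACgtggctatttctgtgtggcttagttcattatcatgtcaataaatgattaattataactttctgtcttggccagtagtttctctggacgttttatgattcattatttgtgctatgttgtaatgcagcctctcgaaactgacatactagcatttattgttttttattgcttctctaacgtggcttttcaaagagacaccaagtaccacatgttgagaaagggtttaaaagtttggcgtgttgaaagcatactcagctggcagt
Slc22a27: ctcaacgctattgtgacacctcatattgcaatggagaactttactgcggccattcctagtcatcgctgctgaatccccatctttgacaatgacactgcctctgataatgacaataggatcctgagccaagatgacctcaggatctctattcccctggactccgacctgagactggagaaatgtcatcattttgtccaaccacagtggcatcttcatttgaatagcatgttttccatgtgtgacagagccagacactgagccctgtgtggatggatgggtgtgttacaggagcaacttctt
Slc22a28: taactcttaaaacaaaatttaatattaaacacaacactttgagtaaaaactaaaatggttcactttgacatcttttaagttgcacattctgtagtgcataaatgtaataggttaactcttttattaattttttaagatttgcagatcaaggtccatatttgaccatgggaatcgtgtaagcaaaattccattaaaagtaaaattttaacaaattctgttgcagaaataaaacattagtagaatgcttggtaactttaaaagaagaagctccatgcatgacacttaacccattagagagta
Slc22a30: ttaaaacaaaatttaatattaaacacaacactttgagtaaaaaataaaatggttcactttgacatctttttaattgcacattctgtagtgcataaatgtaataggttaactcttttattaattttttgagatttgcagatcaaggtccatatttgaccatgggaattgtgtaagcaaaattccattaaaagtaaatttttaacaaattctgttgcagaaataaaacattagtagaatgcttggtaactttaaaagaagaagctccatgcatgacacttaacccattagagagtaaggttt
Slc7a11: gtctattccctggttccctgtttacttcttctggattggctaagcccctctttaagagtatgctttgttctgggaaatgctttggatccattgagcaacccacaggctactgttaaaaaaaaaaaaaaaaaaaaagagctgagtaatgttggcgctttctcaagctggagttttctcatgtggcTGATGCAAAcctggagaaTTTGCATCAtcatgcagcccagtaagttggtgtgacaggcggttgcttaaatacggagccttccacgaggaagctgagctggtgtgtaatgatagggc
The windows of Slc22a28 and Slc22a30 were 94.1% identical over 306 aligned columns, whereas that of Slc22a27 was 46.9% and 49.1% identical with them. The HNF1 half-site was in the windows of 4 of the 70 genes (Slc10a2, Slc39a9, Slc7a7 and Slco1b2), and in 7.10% of 32851 windows of all genes. The C/EBP-ATF element was in those of 3 of 70 (Slc17a1, Slc7a11 and Slc7a7), beside 3.95% of all windows. PU.1 matched in 3 of 70 (Slc12a4, Slc35b2 and Slc43a1), beside 3.20%, and HNF4 in 0 of 70, beside 0.475%. A solute carrier gene was counted when any of its windows matched, whereas the percentages count single windows. The counts and percentages therefore differ in unit and are not directly comparable.

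On the AMLN diet, carriers of amino acids were mostly listed as higher in both genotypes, and so were carriers of metals and sugars in TSP1ΔPf4, while carriers of organic anions and bile acids were mostly listed as lower in both. Of the solute carrier genes in the TSP1F/F table, 30 were listed as higher and 23 as lower, and of those for TSP1ΔPf4 29 as higher and 19 as lower. Among all listed genes, 67.5% were higher in TSP1F/F and 44.2% in TSP1ΔPf4, compared with 56.6% and 60.4% of the solute carrier genes. By median, the genes listed as lower were the more abundant ones. They also included genes at low levels, down to 0.0482 FPKM on LF in TSP1F/F and 0.0792 FPKM in TSP1ΔPf4. Their median level on LF was 27.6 FPKM in TSP1F/F and 16.1 FPKM in TSP1ΔPf4, against 0.421 and 1.14 FPKM for the genes listed as higher. On the AMLN diet the medians were 12.3 and 9.21 FPKM for the genes listed as lower, against 1.00 and 2.79 FPKM. The level on LF also enters the fold change that sets the direction. No such medians are given for all listed genes, so this is not shown to be particular to solute carriers. The highest level on LF was that of Slco1b2 in TSP1F/F, at 617 ± 295 FPKM (SD, n = 4), followed by Slc10a1 at 282 ± 69.6. In TSP1ΔPf4, Slc25a47 had 501 ± 143 FPKM and Slc10a1 had 324 ± 39.9 FPKM on LF.

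**Figure D1:**
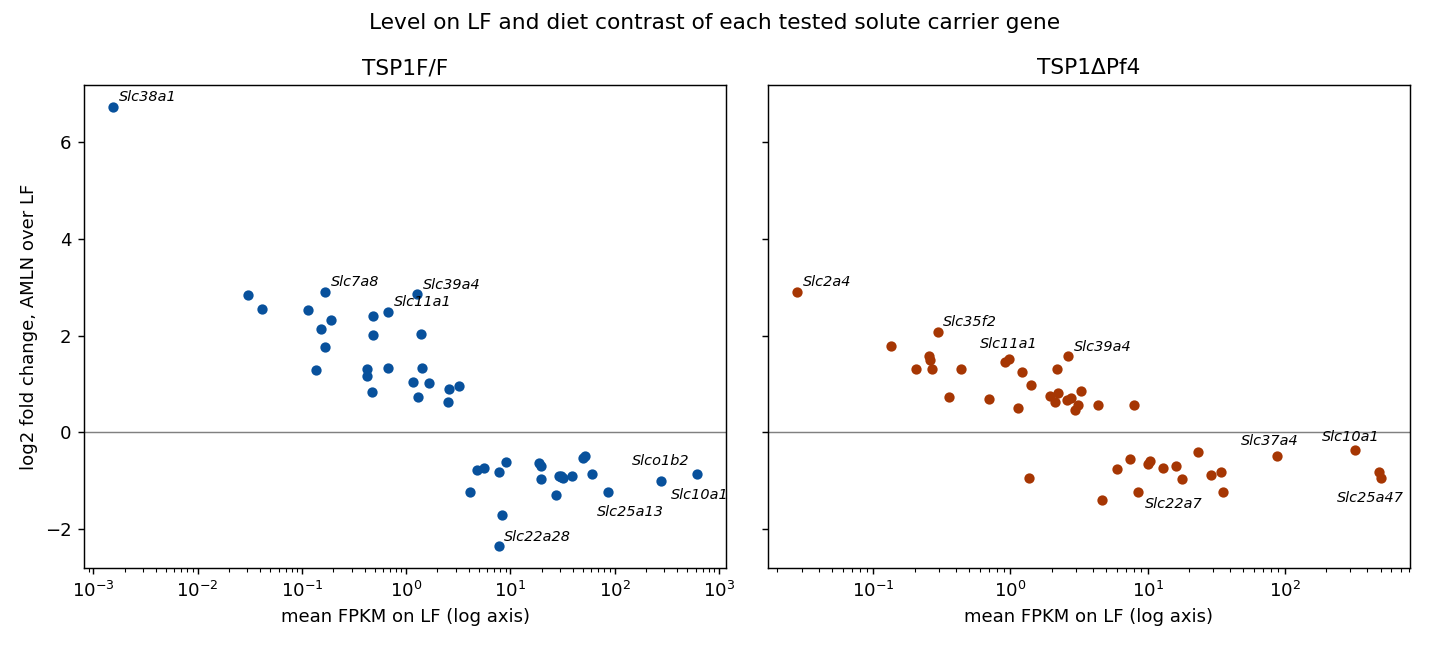
Each point is a tested solute carrier gene, with its mean FPKM in the 4 LF-fed mice on a log axis and its log2 fold change (AMLN over LF) on the other, for TSP1F/F on the left and TSP1ΔPf4 on the right. The genes lower on AMLN include those with the highest levels, such as Slco1b2 and Slc25a47, and most of the genes higher on AMLN lie at low levels on LF.

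With the quasi-likelihood test of edgeR and p-values adjusted by the Benjamini-Hochberg method, genes were called when the adjusted p was under 0.05 and the log2 fold change exceeded 0.25 in size. Of the 47 tested solute carrier genes in TSP1F/F, 4 rose and 0 fell, beside 2.48% of the 2096 genes tested that were called in either direction. In TSP1ΔPf4, 0 of 45 were called, beside 2.98% of 3089. At an unadjusted p under 0.05 the counts were 38 and 39, beside 80.2% and 85.8% of all genes tested, and DESeq2 called 14 and 19, beside 26.9% and 34.7%. The 4 genes called in TSP1F/F were Slc15a3, Slc11a1, Slc38a1 and Slc7a8. Leaving out 1 mouse gave at most 1 called gene in TSP1F/F, except without LF replicate 3, where 4 were called, with Slc39a4 (adjusted p = 0.042) in place of Slc7a8. Over these 8 fits Slc15a3 was called in 2 (adjusted p from 0.0291 to 0.0889), Slc38a1 in 2 (0.0369 to 0.0954), Slc11a1 in 1 (0.0258 to 0.0914) and Slc7a8 in 0 (0.0541 to 0.154). With TMM scaling the number stayed at 4, with Slc25a13 in place of Slc7a8. In TSP1ΔPf4, 5 were called without AMLN replicate 4 (Slc13a3, Slc25a25, Slc35f2, Slc39a4 and Slc7a8) and 0 without any other mouse. For the fits with TMM scaling or without a mouse, no share over all genes is given. Since the tables were selected on this contrast, nothing is read from these shares and counts. All log2 fold changes and adjusted p-values below are from this edgeR fit unless another is named, and diet folds are AMLN over LF.

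**Figure D2:**
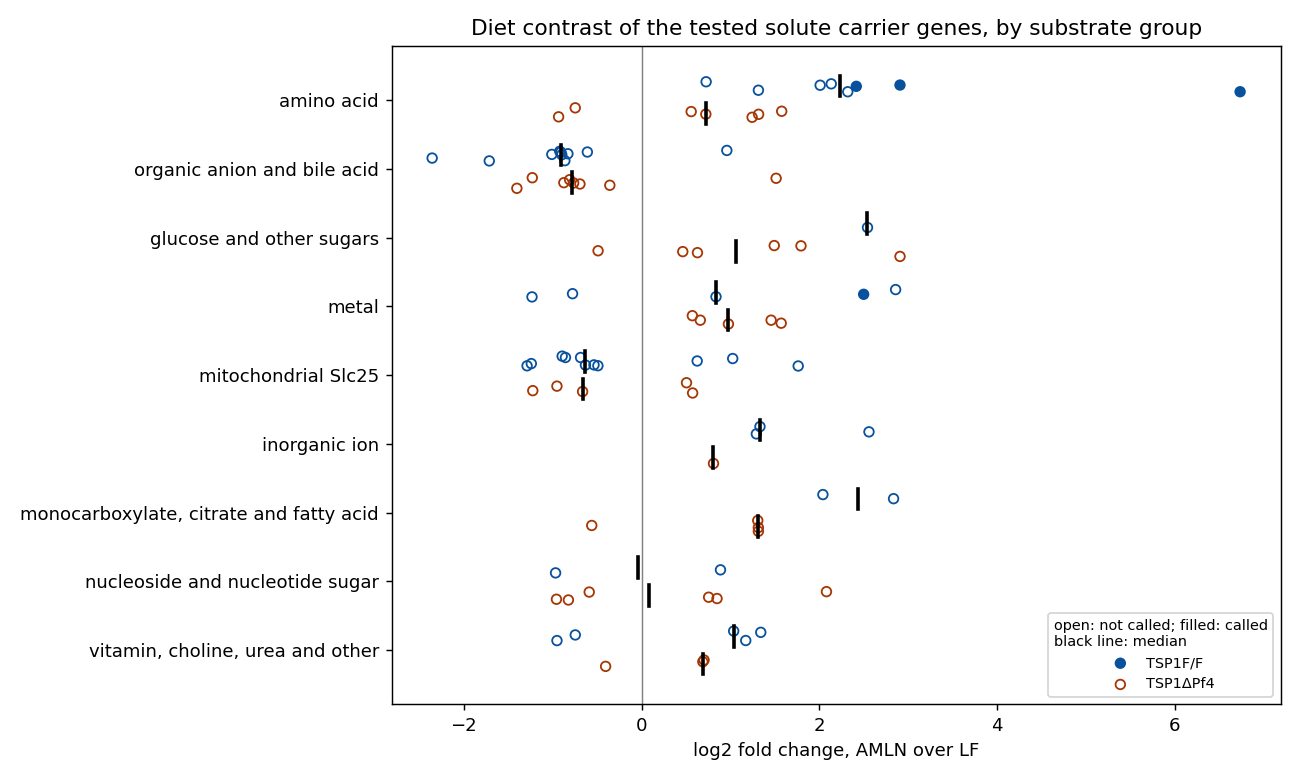
Log2 fold changes (AMLN over LF) of the tested solute carrier genes by substrate group, blue for TSP1F/F and brown for TSP1ΔPf4; filled points are called genes, open points are not called and black lines are medians. The amino acid median in TSP1F/F was 2.23 and the organic anion and bile acid medians were -0.90 and -0.79.

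Amino acid and peptide carriers were all listed as higher in TSP1F/F (9 of 9, beside 67.5% of all listed genes), with a median log2 fold change of 2.23 over the 8 tested, beside 1.15 over all genes tested in that table. In 8 of the 9 the AMLN-fed and LF-fed mice did not overlap, beside 47.2% of all listed genes. In TSP1ΔPf4, 5 of 7 were listed as higher, beside 44.2%, with a median of 0.72 beside -0.54 over all genes tested, and 3 of 7 did not overlap, beside 48.7%.

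Slc15a3 (ENSMUSG00000024737, chr19:10839727-10859362, forward strand), which exports histidine and small peptides from lysosomes, had 3.97, 2.25, 1.71 and 2.7 CPM in the LF-fed and 14.6, 13, 15.5 and 13.7 CPM in the AMLN-fed TSP1F/F mice. Each AMLN-fed mouse was above each LF-fed mouse. The means were 2.66 ± 0.963 and 14.2 ± 1.08 CPM (SD, n = 4), and the rise was a log2 fold change of 2.42 (SE 0.35, adjusted p = 0.0214). The TSP1ΔPf4 mice had 0.85, 3.67, 3.5 and 1.59 CPM on LF and 4.54, 7.36, 5.52 and 6.59 CPM on AMLN, with a log2 fold change of 1.32 (SE 0.43, adjusted p = 0.13). These mice did not overlap either, although the change did not pass the test.

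Slc7a8 (ENSMUSG00000022180, chr14:54722209-54781946, reverse strand), an exchanger of neutral amino acids, had 0.47, 0.858, 0.772 and 1.28 CPM on LF and 6.57, 4.18, 9.91 and 4.9 CPM on AMLN in TSP1F/F. All AMLN-fed values lay above the LF-fed ones, and the rise was a log2 fold change of 2.91 (SE 0.50, adjusted p = 0.044). In TSP1ΔPf4 the values were 1.33, 1.45, 0.817 and 1.49 CPM on LF and 3.8, 5.18, 4.21 and 2.02 CPM on AMLN, with a log2 fold change of 1.58 (SE 0.38, adjusted p = 0.0738). The lowest of the AMLN-fed TSP1ΔPf4 mice was replicate 4, and without it the gene passed the test (adjusted p = 0.0459). Slc43a2, which facilitates the passage of branched-chain and other large neutral amino acids, had 0.626, 1.29, 0.827 and 3.41 CPM on LF and 8.23, 5.57, 8.75 and 4.74 CPM on AMLN in TSP1F/F, a log2 fold change of 2.13 (SE 0.57, adjusted p = 0.178). Its TSP1ΔPf4 mice had 3.19, 3.57, 2.45 and 5.04 CPM on LF and 4.44, 6.09, 8.96 and 4.05 CPM on AMLN, which overlapped, with a log2 fold change of 0.72 (SE 0.34, adjusted p = 0.283) that was 0.44 without AMLN replicate 3.

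Slc38a1 (ENSMUSG00000023169, chr15:96571418-96642913, reverse strand), a sodium-coupled carrier of glutamine, was close to absent on LF in TSP1F/F, with 0 or 1 count in each mouse. Its levels were 0.0522, 0, 0.0551 and 0 CPM on LF and 2.0, 1.21, 4.38 and 5.17 CPM on AMLN, at least 21.4-fold higher against a floor of 3 counts in each LF library, and it passed the test (adjusted p = 0.023). Slc7a11 (ENSMUSG00000027737, chr3:49892526-50443614, reverse strand), the cystine and glutamate exchanger, had 0 counts in every LF-fed TSP1F/F mouse and 0, 0.314, 0.78 and 1.63 CPM on AMLN, at least 4.58-fold higher on average, with 1 AMLN-fed mouse also at 0. It had too few counts to be tested. Both genes were in the TSP1F/F table only.

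The glutamine carrier Slc1a5 had 1.57, 0.161, 1.05 and 0.375 CPM on LF and 2.0, 1.75, 4.7 and 7.3 CPM on AMLN in TSP1F/F, a log2 fold change of 2.32 (SE 0.78, adjusted p = 0.296). Slc7a7, which exchanges basic for neutral amino acids, gave 1.31 (SE 0.54, adjusted p = 0.424) and the creatine carrier Slc6a8 gave 2.01 (SE 0.53, adjusted p = 0.17), both on the log2 scale. None of these 3 passed the test, and in all 3 the diets did not overlap. In the TSP1ΔPf4 table, the glycine carrier Slc6a9 had 3.88, 9.13, 3.91 and 8.17 CPM on LF and 10.9, 14, 21.7 and 13 CPM on AMLN, a log2 fold change of 1.24 (SE 0.34, adjusted p = 0.0952). The amino acid carriers listed as lower there were Slc38a2, a sodium-coupled carrier of small neutral amino acids, and Slc43a1, a carrier of large neutral ones. Slc38a2 had 97.8, 82.7, 184 and 97.8 CPM on LF and 45.9, 93.9, 60.6 and 74.9 CPM on AMLN. LF replicate 3 was its highest mouse, the groups overlapped, and its log2 fold change of -0.75 was -0.43 without that mouse.

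Metal carriers were listed as higher in 3 of 5 cases in TSP1F/F, beside 67.5% of all listed genes, and in 5 of 5 in TSP1ΔPf4, beside 44.2%. Their median log2 fold changes were 0.84 and 0.98, beside 1.15 and -0.54 over all genes tested. The diets did not overlap for 4 of 5 in each table, beside 47.2% and 48.7% of all listed genes. They included Slc11a1 (ENSMUSG00000026177, chr1:74375195-74386062, forward strand), which moves iron and manganese out of the phagosomes of macrophages. It had 1.88, 2.47, 3.8 and 1.8 CPM on LF and 10.6, 13.2, 17.2 and 15.1 CPM on AMLN in TSP1F/F. The diets did not overlap, the means were 2.49 ± 0.927 and 14 ± 2.81 CPM (SD, n = 4), and the rise was a log2 fold change of 2.50 (SE 0.37, adjusted p = 0.0214). In TSP1ΔPf4 it had 4.73, 1.79, 3.79 and 3.29 CPM on LF and 7.54, 8.47, 8.93 and 12.4 CPM on AMLN, again without overlap, with a log2 fold change of 1.46 (SE 0.32, adjusted p = 0.062). This passed the test with TMM scaling or DESeq2.

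Slc39a4 (ENSMUSG00000063354, chr15:76612383-76617384, reverse strand), a zinc importer, had 2.3, 6.22, 1.21 and 6.27 CPM on LF and 36.4, 19.8, 38.4 and 21.8 CPM on AMLN in TSP1F/F, and its log2 fold change of 2.86 (SE 0.52, adjusted p = 0.0529) did not pass the test. The zinc importer had 11.3, 12.2, 4.73 and 4.67 CPM on LF and 26.4, 26, 29.2 and 16.1 CPM on AMLN, in TSP1ΔPf4, with a log2 fold change of 1.57 (SE 0.35, adjusted p = 0.062). The diets were separate in both genotypes. Of the other metal carriers, Slc11a2, the iron importer of endosomes and of the gut, was higher in TSP1ΔPf4 at a log2 fold change of 0.66 (SE 0.26, adjusted p = 0.194). Slc41a1, a magnesium carrier, was higher in TSP1F/F at 0.84 (SE 0.41, adjusted p = 0.556). Slc30a6, a zinc carrier of the secretory pathway, was lower at -0.78 (SE 0.28, adjusted p = 0.343) and Slc30a10, a manganese exporter, at -1.23 (SE 0.53, adjusted p = 0.468), and the diets overlapped for Slc30a10.

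Because the RNA was from whole liver, fewer cells of a type and less RNA per cell cannot be told apart. On average, the listed macrophage markers were higher on AMLN in each genotype, as were Slc15a3 and Slc11a1. They were compared by group and not mouse by mouse. Of 12 macrophage markers, 11 were listed in TSP1F/F and all 11 were higher on AMLN, with summed levels of 108.9 to 661 CPM on LF and 771 to 3171 CPM on AMLN. In TSP1ΔPf4, 10 of 12 were listed and all 10 were higher, with 92.8 to 208 CPM on LF and 303 to 428 CPM on AMLN. No listed marker was at 0 in every mouse of a group. Listed markers of stellate cells (5 of 8 in TSP1F/F, 4 of 8 in TSP1ΔPf4) were higher as well, with sums of 12.3 to 30.1 CPM on LF and 93.0 to 181 CPM on AMLN in TSP1F/F, and of 18.4 to 31.2 and 27.2 to 112.9 CPM in TSP1ΔPf4. In the TSP1F/F mice the listed markers of T cells, neutrophils, endothelium, red blood cells, B cells and platelets were all higher on AMLN. Sums for T cells (3 of 8) were 0.161 to 0.496 CPM on LF and 2.93 to 5.16 on AMLN. Neutrophils (3 of 5) had 0.992 to 2.63 and 3.1 to 11.5. Endothelium (2 of 5) had 8.99 to 23.8 and 33.5 to 39.8. Red blood cells (2 of 5) had 10.8 to 111 and 85.5 to 421. B cells (1 of 4) had 0.965 to 2.48 and 1.48 to 6.32. Platelets (1 of 5) had 0 to 0.858 and 2.21 to 4.58. In TSP1ΔPf4, both listed T cell markers were higher (0 to 0.637 and 0.701 to 2.9 CPM), 1 of 2 listed endothelial markers was higher (sums of 35.1 to 45.9 and 40.3 to 49 CPM), and the 1 listed red blood cell marker was lower on average (1.06 to 17.4 and 1.08 to 3.5 CPM). The part of all these cells in the levels of the carriers was not tested.

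In TSP1F/F, 9 of 10 carriers of organic anions, organic cations and bile acids were lower on AMLN, beside 832 of 2558 listed genes. In TSP1ΔPf4, 7 of 8 were lower, beside 1896 of 3399. They included the glutamate carrier Slc17a8, at mean levels of 28.5 CPM on LF and 16.8 CPM on AMLN. The median log2 fold changes of these carriers were -0.90 and -0.79, beside 1.15 and -0.54 over all genes tested in each table, and none passed the test. The diets did not overlap for 4 of 10 and 1 of 8, beside 47.2% and 48.7% of all listed genes. Of 10 hepatocyte markers, 3 were listed in TSP1F/F, all lower, with summed levels of 6115 to 8660 CPM on LF and 2732 to 6275 CPM on AMLN. In TSP1ΔPf4, 6 were listed, 5 of them lower and Hnf4a higher, with sums of 28834 to 39607 CPM on LF and 14985 to 21870 CPM on AMLN. Their part was not tested.

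Slc10a1 (ENSMUSG00000021135, chr12:80953183-80968705, reverse strand) encodes the sodium-coupled carrier that takes up bile acids from portal blood. It had 781, 624, 414 and 662 CPM on LF and 406, 359, 185 and 282 CPM on AMLN in TSP1F/F, where every AMLN-fed mouse was below every LF-fed mouse. The means were 620.2 ± 153 and 308 ± 96.3 CPM (SD, n = 4), a log2 fold change of -1.01 (SE 0.31, adjusted p = 0.247). In TSP1ΔPf4 the mice had 803, 767, 655 and 620.3 CPM on LF and 515, 537, 639 and 531 CPM on AMLN, with 1 AMLN-fed mouse inside the LF range, and a log2 fold change of -0.36 (SE 0.19, adjusted p = 0.367).

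Slc22a7 (ENSMUSG00000067144, chr17:46432183-46438457, reverse strand), which carries organic anions at the sinusoidal side of hepatocytes, had 18.4, 12.9, 21.6 and 17.6 CPM on LF and 7.2, 7.27, 2.92 and 4.08 CPM on AMLN in TSP1F/F, a log2 fold change of -1.71 (SE 0.37, adjusted p = 0.0846). In TSP1ΔPf4 it had 19.8, 12.3, 20.3 and 18.7 CPM on LF and 9.47, 6.58, 3.89 and 10.4 CPM on AMLN, a log2 fold change of -1.23 (SE 0.31, adjusted p = 0.0812). The diets were separate in both genotypes, and neither change passed the test.

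Genes of 1 cluster on chromosome 19 belong to a rodent group of organic anion carriers, Slc22a27 (ENSMUSG00000067656, chr19:7864388-7966027, reverse strand), Slc22a28 (ENSMUSG00000063590, chr19:8062209-8131982, reverse strand) and Slc22a30 (ENSMUSG00000052562, chr19:8335371-8405111, reverse strand). Slc22a28 had 9.19, 9.38, 35.8 and 7.58 CPM on LF and 4.48, 3.73, 1.38 and 2.51 CPM on AMLN in TSP1F/F, a log2 fold change of -2.36 (SE 0.58, adjusted p = 0.142) that was -1.53 without LF replicate 3. In TSP1ΔPf4 it had 5.31, 10.1, 16.3 and 5.84 CPM and 3.0, 3.08, 1.18 and 6.98 CPM, a log2 fold change of -1.40 (SE 0.51, adjusted p = 0.165). The diets were separate in TSP1F/F and overlapped in TSP1ΔPf4. Slc22a30 had 94.6, 133, 224 and 74.3 CPM on LF and 56.1, 93.3, 48.8 and 82 CPM on AMLN in TSP1F/F, and 82.5, 75.7, 159 and 70.3 and 38.3, 43.6, 43.9 and 85.7 CPM in TSP1ΔPf4. Its log2 fold changes of -0.91 and -0.87 were -0.52 and -0.53 without LF replicate 3, which was the highest mouse in both genotypes. Slc22a27, listed in TSP1ΔPf4 only, lay on the other side with 2.18, 1.4, 3.97 and 0.902 CPM on LF and 2.77, 5.18, 9.09 and 7.02 CPM on AMLN, a log2 fold change of 1.51 (SE 0.49, adjusted p = 0.128). The similarity of their transcripts was not measured. Whether the counting split reads between these genes was not tested, so these values are uncertain.

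Slco1b2 (ENSMUSG00000030236, chr6:141629518-141686646, forward strand), the main hepatic uptake carrier of unconjugated bile acids, had 2134, 3339, 4965 and 1723 CPM on LF and 1199, 1830, 1209 and 2448 CPM on AMLN in TSP1F/F. The groups overlapped, LF replicate 3 was the highest mouse, and the log2 fold change of -0.86 (SE 0.40, adjusted p = 0.511) was -0.52 without it. Slc10a2, the bile acid carrier of the ileum and of bile duct cells, was the organic anion carrier listed as higher in TSP1F/F, with 10.9, 14.5, 20.2 and 7.96 CPM on LF and 16.6, 15.3, 23.6 and 48.7 CPM on AMLN and a log2 fold change of 0.96 (SE 0.43, adjusted p = 0.486), which was 0.47 without AMLN replicate 4. Markers of bile duct cells were listed for 3 of 5 in TSP1F/F, all higher on AMLN, with sums of 30.8 to 59.2 CPM on LF and 51.3 to 243 CPM on AMLN. Their part was not tested. In TSP1ΔPf4, the organic anion carrier Slco1a4 had a log2 fold change of -0.69 (SE 0.31, adjusted p = 0.251), which was -0.40 without LF replicate 1, and the diets overlapped.

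Slc17a1, Slc17a2 and Slc17a3 lie close together on chromosome 13 and carry phosphate and organic anions such as urate. They were listed in TSP1F/F only, all as lower, with log2 fold changes of -0.83, -0.92 and -0.61 and adjusted p-values from 0.313 to 0.511, which did not pass the test. The carnitine carrier Slc22a5 was also lower there, at -0.90 (SE 0.35, adjusted p = 0.397).

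Members of the mitochondrial Slc25 family were listed as lower in 8 of 11 cases in TSP1F/F, beside 832 of 2558 listed genes. They included Slc25a17, the carrier of peroxisomes. In TSP1ΔPf4, 3 of 5 members were lower, near the share of all listed genes there (1896 of 3399). The family's median log2 fold changes were -0.63 and -0.66, beside 1.15 and -0.54 over all genes tested, and none passed the test. Slc25a13 (ENSMUSG00000015112, chr6:6041218-6217173, reverse strand), the aspartate and glutamate carrier of liver mitochondria that serves the urea cycle, had 315, 312, 408 and 275 CPM on LF and 125, 174, 133 and 123 CPM on AMLN in TSP1F/F. The diets were separate, with means of 328 ± 56.5 and 139 ± 24 CPM (SD, n = 4), and the log2 fold change was -1.24 (SE 0.24, adjusted p = 0.0602). It passed the test with DESeq2 or TMM scaling. Its paralog Slc25a12 was listed in TSP1ΔPf4 only and as higher, with 8.02, 9.66, 7.59 and 8.12 CPM on LF and 12.3, 11.2, 11.8 and 12.1 CPM on AMLN, a log2 fold change of 0.51 (SE 0.20, adjusted p = 0.202).

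Slc25a25 (ENSMUSG00000026819, chr2:32414487-32451445, reverse strand), which exchanges ATP-magnesium for phosphate, was the member of the family in both tables. It had 206, 291, 164 and 303 CPM on LF and 65.4, 110.4, 148 and 195 CPM on AMLN in TSP1F/F, which overlapped, with a log2 fold change of -0.89 (SE 0.35, adjusted p = 0.397). In TSP1ΔPf4 it had 210.4, 234, 335 and 329 CPM on LF and 116, 90.3, 89.8 and 179 CPM on AMLN, which did not overlap, with a log2 fold change of -1.22 (SE 0.28, adjusted p = 0.0622). Slc25a47 (ENSMUSG00000048856, chr12:108836046-108856815, forward strand), an abundant carrier of hepatocyte mitochondria, had 1064, 1196, 1892 and 1827 CPM on LF and 964, 639, 622 and 864 CPM on AMLN in TSP1ΔPf4, a log2 fold change of -0.95 (SE 0.25, adjusted p = 0.0855).

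Other carriers of this family serve hepatocyte metabolism or nucleotide transport. The carnitine-acylcarnitine carrier Slc25a20 had 186, 310.5, 421 and 253 CPM on LF and 139, 215, 132 and 160.3 CPM on AMLN in TSP1F/F, a log2 fold change of -0.86 (SE 0.30, adjusted p = 0.323). The ornithine carrier Slc25a15 gave -0.54 (SE 0.25, adjusted p = 0.513) and Slc25a16, a carrier linked to coenzyme A, gave -0.69 (SE 0.25, adjusted p = 0.356). Slc25a33, a pyrimidine nucleotide carrier, had 22, 39.4, 111 and 35.5 CPM on LF and 19, 28.5, 19.6 and 18.2 CPM on AMLN, and its log2 fold change of -1.29 was -0.60 without LF replicate 3. The genes of the family listed as higher in TSP1F/F were the adenine nucleotide carrier Slc25a4 at 1.03 (SE 0.37, adjusted p = 0.351), the iron importer Slc25a37 at 0.63 (SE 0.29, adjusted p = 0.507) and the pyrimidine nucleotide carrier Slc25a36 at 1.76 (SE 0.68, adjusted p = 0.383). The adjusted p-values of these carriers ranged from 0.323 to 0.513.

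Sugar carriers were listed mostly in the TSP1ΔPf4 table, 7 genes against 1, and 6 of the 7 were higher on AMLN, beside 44.2% of all listed genes. The diets did not overlap for 6 of 7, beside 48.7%. The median log2 fold change was 1.06 over 6 tested, beside -0.54 over all genes tested, and none passed the test. The listed facilitative glucose carriers had low levels. Slc2a1 had 7.81, 7.25, 5.43 and 9.18 CPM on LF and 9.81, 15.3, 11.1 and 9.73 CPM on AMLN, a log2 fold change of 0.63 (SE 0.25, adjusted p = 0.205). Slc2a4, the insulin-regulated carrier of muscle and fat, had 0, 0, 0.175 and 0.212 CPM on LF and 0.50, 0.658, 0.574 and 1.25 CPM on AMLN, a log2 fold change of 2.91 (SE 0.87, adjusted p = 0.105). The sodium-coupled glucose carrier Slc5a1 had a log2 fold change of 1.79 (SE 0.58, adjusted p = 0.128). Slc2a3, at 0 to 2 counts in the LF-fed mice, was at least 3.54-fold higher on AMLN.

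Slc37a4 (ENSMUSG00000032114, chr9:44396852-44402968, forward strand), which brings glucose 6-phosphate into the endoplasmic reticulum for glucose release, was the sugar carrier listed as lower in TSP1ΔPf4. It had 261, 286, 214 and 246 CPM on LF and 156, 199, 178 and 185 CPM on AMLN, which did not overlap, with a log2 fold change of -0.49 (SE 0.19, adjusted p = 0.198). Its relatives were higher. Slc37a2, a sugar phosphate carrier of macrophages listed in TSP1F/F only, had 0.522, 0.75, 0.937 and 0.863 CPM on LF and 4.6, 1.71, 2.79 and 8.93 CPM on AMLN, a log2 fold change of 2.54 (SE 0.61, adjusted p = 0.13) that passed the test with DESeq2. Slc37a1 and Slc37a3, listed in TSP1ΔPf4, had log2 fold changes of 1.49 and 0.46.

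The remaining shared carriers belong to other substrate groups. Slc13a3, a sodium-coupled carrier of dicarboxylates such as succinate, had 7.83, 7.61, 3.47 and 10.1 CPM on LF and 42.2, 33, 37.3 and 6.81 CPM on AMLN in TSP1F/F, a log2 fold change of 2.04 (SE 0.52, adjusted p = 0.158). The TSP1ΔPf4 mice had 13.2, 11.3, 9.63 and 11.3 CPM on LF and 28.3, 36.8, 38 and 9.69 CPM on AMLN, a log2 fold change of 1.31 (SE 0.36, adjusted p = 0.0921). In each genotype AMLN replicate 4 lay within the LF range while the other 3 AMLN-fed mice lay above it. Without that mouse the gene passed the test, with an adjusted p of 0.0497 in TSP1F/F and 0.0235 in TSP1ΔPf4.

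Slc12a4, a potassium and chloride cotransporter, had 9.03, 4.61, 1.82 and 8.97 CPM on LF and 20.1, 11.5, 21.8 and 8.22 CPM on AMLN in TSP1F/F, and 9.77, 10.2, 7.88 and 10.2 and 21.1, 13.1, 18.1 and 14.2 CPM in TSP1ΔPf4. The log2 fold changes were 1.33 (SE 0.51, adjusted p = 0.383) and 0.81 (SE 0.23, adjusted p = 0.0966), and the diets overlapped in TSP1F/F only. The thiamine carrier Slc19a2 had 128, 112, 165 and 88.6 CPM on LF and 54.4, 74.6, 53.1 and 73.5 CPM on AMLN in TSP1F/F, and 109, 91.9, 86.2 and 74.1 and 61.7, 72.4, 68.6 and 69.9 CPM in TSP1ΔPf4. It was lower on AMLN in both without overlap, at -0.95 (SE 0.26, adjusted p = 0.181) and -0.40 (SE 0.19, adjusted p = 0.283). The nucleotide sugar carrier Slc35d2 had 33, 56.9, 130.2 and 37.1 CPM on LF and 24.8, 41.8, 22.3 and 42.6 CPM on AMLN in TSP1F/F, and 31.9, 31, 39.8 and 34.3 and 19.9, 25.4, 18.9 and 27 CPM in TSP1ΔPf4. Its log2 fold change of -0.97 in TSP1F/F was -0.36 without LF replicate 3, and in TSP1ΔPf4 it was -0.59 (SE 0.20, adjusted p = 0.143).

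Several carriers with separate diets were listed in 1 table. In TSP1ΔPf4 they included the acetyl-CoA carrier Slc33a1, with 47.9, 47.5, 112 and 46.4 CPM on LF and 31.7, 30.6, 32.5 and 36 CPM on AMLN, whose log2 fold change of -0.96 was -0.53 without LF replicate 3. The others were Slc35b2, the carrier of the sulfate donor of the Golgi, at -0.82 (SE 0.25, adjusted p = 0.111), Slc35e3, a relative of the nucleotide sugar carriers, at 0.85 (SE 0.24, adjusted p = 0.103), the monocarboxylate carrier family members Slc16a6 at 1.31 (SE 0.38, adjusted p = 0.104) and Slc16a9 at 1.31 (SE 0.38, adjusted p = 0.104), and the biotin and pantothenate carrier Slc5a6 at 0.70 (SE 0.23, adjusted p = 0.132). In TSP1F/F they included Slc44a3, a member of the choline-like carrier family, at 1.34 (SE 0.39, adjusted p = 0.22), the anion exchanger Slc26a6 at 1.29 (SE 0.65, adjusted p = 0.599), Slc35c2, a Golgi protein related to the GDP-fucose carrier, at 0.89 (SE 0.33, adjusted p = 0.366) and the sulfate carrier Slc13a4, which had 0, 0, 0.551 and 0 CPM on LF, so that LF replicate 3 held all its LF counts, and 0.605, 1.35, 0.805 and 1.14 CPM on AMLN. Apart from the 4 genes called in TSP1F/F, the adjusted p-values of tested solute carrier genes ranged from 0.0529 to 0.599 in TSP1F/F, and from 0.0620 to 0.369 in TSP1ΔPf4.

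The fitted diet log2 fold change had the same sign in both genotypes for all 14 shared genes, with 7 higher and 7 lower on AMLN in each. This was also true of 93.7% of the 687 genes tested in both tables, so it is not particular to the solute carriers. The size of the log2 fold change was smaller in TSP1ΔPf4 for 13 of the 14, beside 82.9% of the genes with the same sign in all, and Slc25a25 was the exception. With TMM scaling these shares were 14 of 14 and 71.7%.

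**Figure D3:**
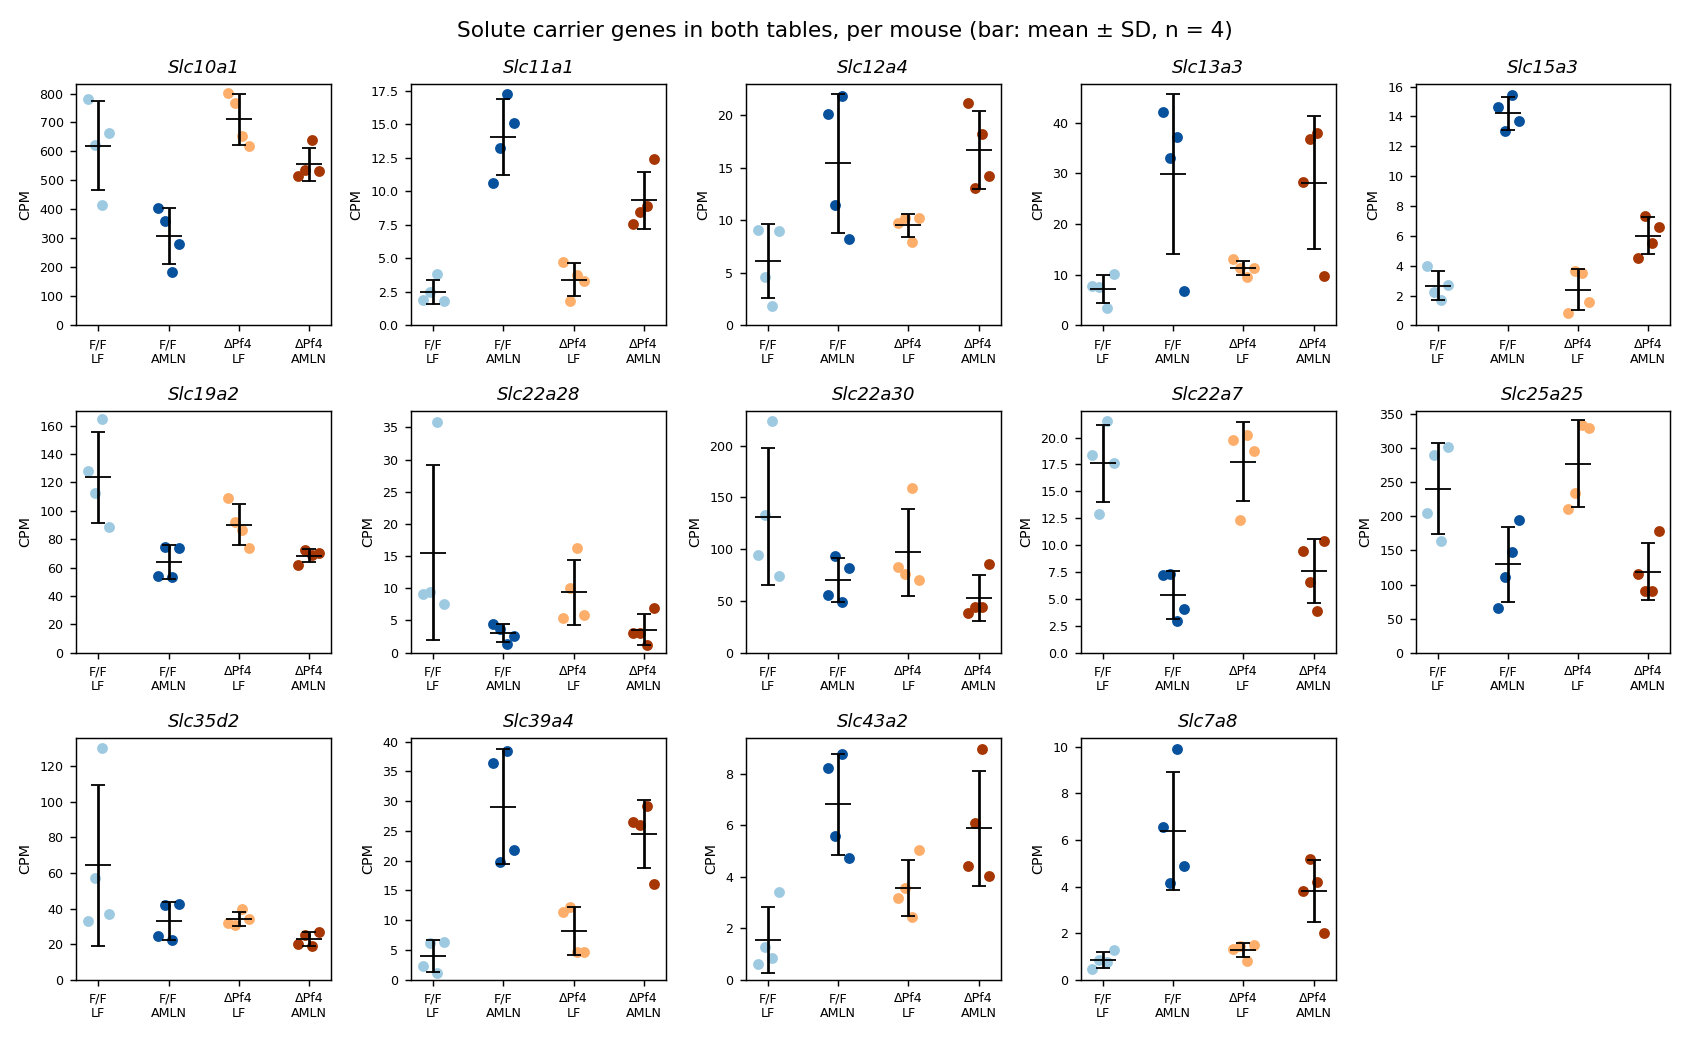
CPM of the 14 solute carrier genes in both tables, 1 point per mouse, in TSP1F/F (blue) and TSP1ΔPf4 (orange and brown) mice on the LF and AMLN diets, with mean ± SD (n = 4); each axis starts at 0. For Slc15a3 and Slc10a1 the AMLN-fed mice of the genotypes do not overlap.

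The genotypes were then compared on the same diet for these 14 genes, TSP1ΔPf4 over TSP1F/F. The question was whether the carriers differed with platelet TSP1 deletion. These contrasts use the same mice as the diet contrasts that chose the genes, and the interaction is the difference of those 2 diet contrasts, so none of them is independent of the choice. Over all 733 genes tested, the median log2 fold change on AMLN was -0.38 when scaled by library totals, -0.10 with TMM and -0.03 with DESeq2, so that directions are read against this shift. On AMLN the median of the 14 was -0.17, and 9 of them lay above the median of all genes under each of the 3 scalings. Of the 14, 1 was called, Slc15a3, which was lower in TSP1ΔPf4, beside 9.0% of all genes tested. At an unadjusted p under 0.05 there were 2, beside 25.2%, and DESeq2 called 2, beside 9.96%. The genotypes did not overlap for 2 of 14 genes (Slc15a3 and Slc10a1), beside 14.6% of all 752 genes, so neither share stood apart from the background.

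Slc15a3 had 14.6, 13, 15.5 and 13.7 CPM in the AMLN-fed TSP1F/F mice and 4.54, 7.36, 5.52 and 6.59 CPM in the AMLN-fed TSP1ΔPf4 mice. The means were 14.2 ± 1.08 and 6.0 ± 1.23 CPM (SD, n = 4), with every TSP1ΔPf4 mouse below every TSP1F/F mouse, and the log2 fold change was -1.24 (SE 0.28, adjusted p = 0.0182). It did not pass with TMM scaling (-0.97, adjusted p = 0.0649) or with all 16 mice in the fit (-1.24, adjusted p = 0.0781), and leaving out TSP1ΔPf4 AMLN replicate 1, 2 or 3 gave adjusted p-values of 0.0641, 0.0573 and 0.0634. On LF the difference was -0.14 (SE 0.53, adjusted p = 0.938), and it changed sign with the mouse left out, from -0.43 to 0.14 (-0.31 without TSP1F/F LF replicate 3). Of the 10 macrophage markers listed in both tables, 9 had a lower mean in the AMLN-fed TSP1ΔPf4 mice, 6 of them called, and Csf1r a higher one. Their sums were 675 to 2958 CPM in AMLN-fed TSP1F/F and 303 to 428 CPM in AMLN-fed TSP1ΔPf4, and no marker was at 0 in every mouse of a group. Their part in the difference was not tested.

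Slc10a1 had 406, 359, 185 and 282 CPM in the AMLN-fed TSP1F/F mice and 515, 537, 639 and 531 CPM in the AMLN-fed TSP1ΔPf4 mice, with all TSP1ΔPf4 mice higher. The log2 fold change of 0.85 (SE 0.29, adjusted p = 0.0996) did not pass the test. It passed with TMM scaling (1.12, adjusted p = 0.0472), with DESeq2 (1.15, adjusted p = 0.0132) and with a replicate block (0.90, adjusted p = 0.0374). The TMM and DESeq2 scalings were both estimated from the selected genes, so they are not separate evidence. With 1 mouse left out in turn, Slc10a1 was called in 0 of 8 fits (adjusted p from 0.0767 to 0.219). On LF the difference was 0.20 (SE 0.25, adjusted p = 0.821), and 0.046 without TSP1F/F LF replicate 3. The 3 hepatocyte markers in both tables had sums of 2732 to 6275 CPM in AMLN-fed TSP1F/F and 4361 to 5698 CPM in AMLN-fed TSP1ΔPf4, which overlapped. The means of Ttr and Serpina1c were higher and that of Asgr1 lower in AMLN-fed TSP1ΔPf4, and 0 were called. Their part in the difference of Slc10a1 was not tested.

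The other 12 genes did not pass the test on AMLN. Among them Slc7a8 had a log2 fold change of -0.75 (SE 0.41, adjusted p = 0.287), Slc11a1 -0.59 (SE 0.29, adjusted p = 0.233), Slc35d2 -0.53 (SE 0.30, adjusted p = 0.303) and Slc22a7 0.50 (SE 0.42, adjusted p = 0.497). Without TSP1F/F AMLN replicate 3 the difference was -0.46 for Slc7a8 and 0.29 for Slc22a7. The differences of Slc13a3, Slc25a25, Slc39a4 and Slc43a2 were from -0.25 to -0.08 and turned positive with TMM scaling or DESeq2, so no direction is given for them. On LF, 0 of 14 were called, beside 0.0% of 640 genes tested. DESeq2 also called 0 of the 14 on LF, beside 0.156%, and at an unadjusted p under 0.05 there was 1, Slc35d2, at -0.91 (SE 0.41, adjusted p = 0.676), beside 6.88% of all genes tested. Without TSP1F/F LF replicate 3 it was -0.30.

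**Figure D4:**
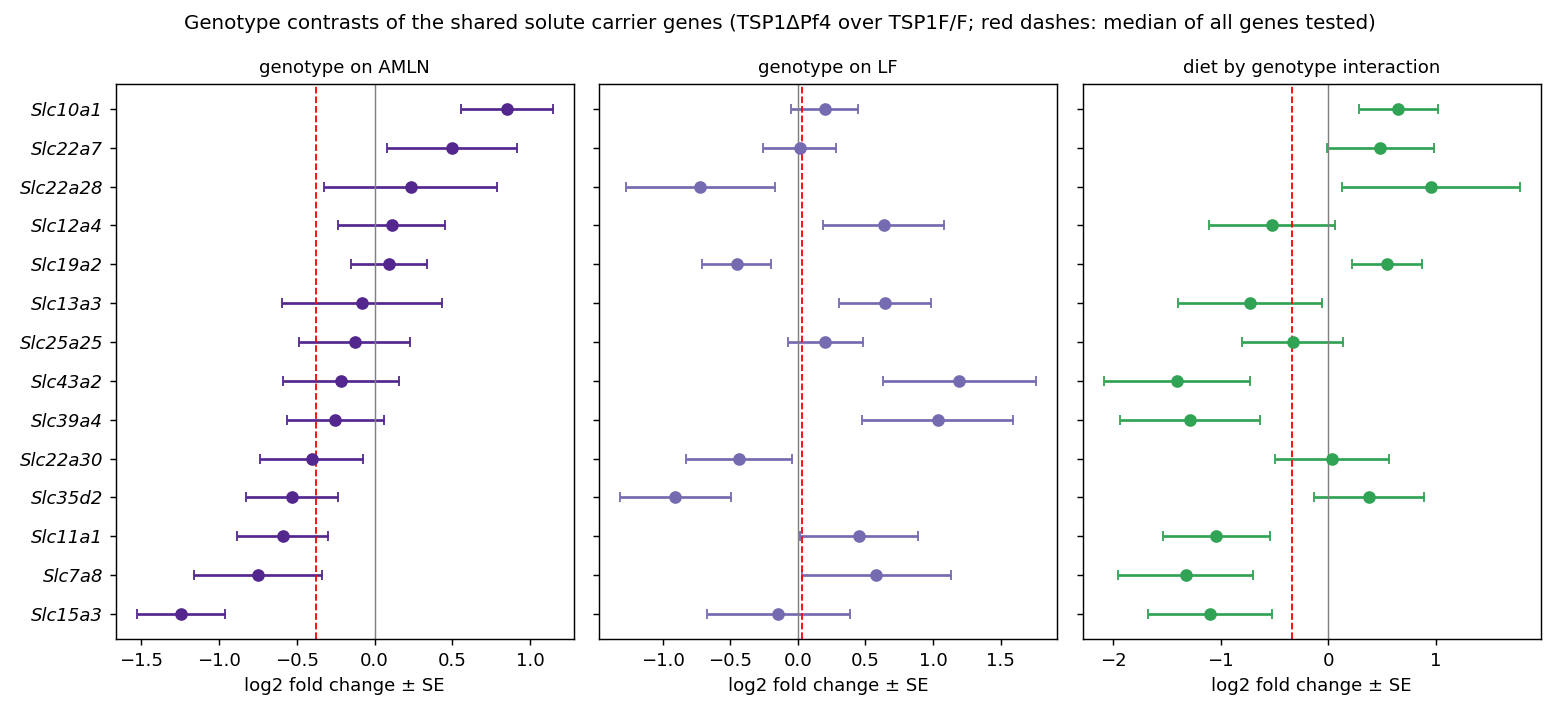
Log2 fold changes (TSP1ΔPf4 over TSP1F/F) with their standard errors for the 14 shared genes on AMLN, on LF and in the diet by genotype interaction; red dashes are the median over all genes tested. On AMLN, Slc15a3 is farthest below and Slc10a1 farthest above 0.

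The interaction, which asks whether the diet response differed between genotypes, was called for 0 of 14, beside 0.409% of 734 genes tested, and DESeq2 also called 0, beside 5.99%. At an unadjusted p under 0.05 there were 2, beside 15.0% of all genes tested. They were Slc7a8, with a log2 difference in response of -1.33 (SE 0.63, adjusted p = 0.324), and Slc11a1, with -1.04 (SE 0.50, adjusted p = 0.327). The median interaction over all genes was -0.34 with library totals and 0.05 with TMM. The difference was -1.41 (SE 0.68, adjusted p = 0.329) for Slc43a2 (-2.17 without TSP1F/F LF replicate 4), -1.29 (SE 0.65, adjusted p = 0.36) for Slc39a4, -1.10 (SE 0.58, adjusted p = 0.388) for Slc15a3 and 0.65 (SE 0.37, adjusted p = 0.438) for Slc10a1.

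Other genes of small molecule transport were counted for comparison. ABC transporters, which pump lipids, bile salts and drugs with ATP, were listed for 13 genes in TSP1F/F. Of these, 9 were higher and 4 lower on AMLN, beside 67.5% higher among all listed genes. Of 13 tested, 0 were called, beside 2.48% of all genes tested. In TSP1ΔPf4, 10 were listed, all as higher, beside 44.2% of all listed genes. Of 9 tested, 1 was called, beside 2.98% of all genes tested. This was Abcg5, a subunit of the exporter of cholesterol and plant sterols into bile, which rose from 62.4 ± 6.51 to 131.7 ± 22.8 CPM (SD, n = 4), a log2 fold change of 1.08 (SE 0.20, adjusted p = 0.0467). Abcg5 in TSP1F/F had 60.4 ± 19.3 and 106 ± 23.5 CPM, with a log2 fold change of 0.81 (SE 0.29, adjusted p = 0.348). Aquaporins, the water channels, were listed for 3 genes in each table, 2 higher and 1 lower, and 0 were called, beside the same shares. Aqp8, a water channel of hepatocytes, was higher in both, at log2 fold changes of 1.09 (SE 0.24, adjusted p = 0.0877) in TSP1F/F and 0.54 (SE 0.25, adjusted p = 0.272) in TSP1ΔPf4.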

How the data were processed

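Liver RNA of 16 mice, 4 per group, was sequenced as paired reads and deposited as 2 tables, each comparing the diets in 1 genotype. Per the paper's methods, the authors aligned reads to mm10 with STAR, while the submitters' processing notes name HISAT2; both name DESeq2. The counting program, annotation release and strand setting are not given in the sources used here, so antisense and overlapping genes cannot be told apart. The authors deposited counts per gene, signal values (counts divided by 1 size factor per library), FPKM per deposited gene length and library total, and their own log2 fold changes and p-values. Those p-values were used only to see that all listed genes had an unadjusted p under 0.05, that 1774 of 2558 (TSP1F/F) and 2106 of 3399 (TSP1ΔPf4) did not have an adjusted p under 0.05, the cutoff the paper's methods state, and that the deposited adjustment covered 16784 (TSP1F/F) and 13927 (TSP1ΔPf4) genes; the log2 values were not used. All 48 columns of single mice were matched to a mouse, and 0 were unmatched.

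TMM assumes genes that were not selected, so the scaling used library totals computed from counts, lengths and FPKM, with TMM, the authors' size factors and DESeq2 1.42.0 as alternatives. After filterByExpr, the quasi-likelihood F test of edgeR 4.0.16 was run in R 4.3.3 with a prior count of 0.125; calls needed a Benjamini-Hochberg adjusted p under 0.05 and a log2 fold change beyond 0.25 either way. Diet tests were adjusted over the 16784 or 13927 genes, and genotype tests over the genes tested. The spread between mice rests on the selected genes, a limit on all p-values. A group with 3 counts or fewer in every library was set to a floor of 3 counts per library, for counting error only. The fits were tested on simulated data.

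Genes named were those in both tables, those called, the 3 per substrate group and table with the largest absolute log2 fold change among those whose diets did not overlap, and a list of liver carriers; Slc37a1, Slc37a3, Slc25a36, Slc25a37, Slc17a1 to Slc17a3, Slc22a5, Slc22a27, Slc6a8, Slc10a2, Slc25a33, Slc2a3, Slc30a6, Slc43a1 and the other genes outside these were added with their values known. Values of 1 further gene are not reported here. The members, substrate groups and lists were chosen with earlier results of these data known. Gene coordinates are the files' own (mm10). Replicate numbers were checked as pairs by the correlation of same-numbered mice's deviations from their group means. For the AMLN-fed genotypes the 4 correlations were 0.24, 0.11, 0.25 and 0.30, all over 0.1, so blocked values are given there; the labels give no shared litter or cage. In the other comparisons at least 1 pair was negative.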

Additional observations from a re-analysis of the deposited data

Results flagged for a closer look

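Mice that lay far from the other 3 of their group were sought with Dixon's ratio at its 95% critical value in 193 groups of 4 with at least 10 counts in 1 mouse. This was met in 13 groups, where chance would flag about 1 in 20, or 9.65 groups. LF replicate 3 accounted for 7 of the 13, with 5 in TSP1ΔPf4 and 2 in TSP1F/F.

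In TSP1F/F on LF, replicate 3 had 35.8 CPM of Slc22a28 and 0.551 CPM of Slc13a4, and replicate 4 had 0.713 CPM of Slc24a3 and 0.375 CPM of Slc8a1, each above the others. On AMLN, replicate 2 had 47.8 CPM of Slc25a17 and 28.5 CPM of Slc25a33, again the highest.

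In TSP1ΔPf4 on LF, replicate 3 was the highest for Slc22a30 (159 CPM), Slc33a1 (112 CPM) and Slc38a2 (184 CPM) and the lowest for Slc11a2 (9.28 CPM) and Slc25a42 (28.5 CPM). On AMLN, replicate 4 was the highest for Slc22a30 (85.7 CPM) and the lowest for Slc39a9 (36.7 CPM).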

How the results depend on the processing

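The number of solute carrier genes called for the diet depended on the tool and on the adjustment. In TSP1F/F, 4 became 14 with DESeq2, 29 when adjusted over the listed genes tested, 0 with a replicate block, and 0 to 4 when each mouse was left out in turn; in TSP1ΔPf4, 0 became 19, 36, 1 with TMM scaling and 0 to 5 (5 without AMLN replicate 4), and 0 with the replicate block. In TSP1F/F, 4 were called without LF replicate 3 and at most 1 without any other mouse. DESeq2 called 26.9% and 34.7% of all genes tested in the 2 genotypes. Adjusting over the listed genes covers only genes selected on this contrast, so many calls were fixed in advance. No share over all genes is given for that adjustment, for TMM scaling, for the replicate block or for the fits without a mouse. Nothing is read from those counts, the 29 and 36 among them. For the genotypes on AMLN, 1 became 2 with DESeq2, beside 9.96% of all genes tested. The number was 2 with the replicate block, for which no share over all genes is given, so nothing is read from it. It was 0 with all 16 mice in the fit and 0 to 1 with a mouse left out, again without a share over all genes. TMM kept the number at 1, also without such a share, but called Slc10a1 in place of Slc15a3. On LF and for the interaction the number was 0 in every alternative, and 14 shared genes had the same sign of diet response in every one. Causes were not tested.

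No diet fold change turned. The genotype difference on AMLN turned for Slc13a3 (0.17 with TMM, 0.23 with DESeq2, 0.024 with the replicate block), Slc25a25 (0.17 and 0.26 with TMM and DESeq2), Slc39a4 (0.024 and 0.10) and Slc43a2 (0.054 and 0.12), and the interaction for Slc25a25 (0.095 and 0.00902) and, with the replicate block, Slc22a30 (-0.00463). Leaving out 1 mouse gave differences on AMLN from -0.10 to 0.32 for Slc12a4, -0.41 to 0.20 for Slc13a3, -0.32 to 0.53 for Slc22a28 and -0.39 to 0.14 for Slc25a25, and interactions from -0.35 to 0.38 for Slc22a30 and -0.22 to 0.60 for Slc35d2. The alternatives applied to the sign of the shared genes, and the values without LF replicate 3, were chosen after seeing the data. Genes with too few counts for the filter, such as Slc2a3 and Slc7a11, were not tested.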
